A study of Mus musculus with 6 samples.

Results

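10 genes of transcription factors that guide effector differentiation and exhaustion of CD8 T cells were followed through single-cell RNA sequencing of tumor and lymph node CD8 T cells. They were *Tox*, *Tox2*, *Eomes*, *Tbx21*, *Prdm1*, *Id2*, *Zeb2*, *Runx3*, *Nfatc1* and *Ikzf2*, 10 of the 32285 genes counted, and were chosen by name. Control mice were CD8-Cre Rosa26Tomato and CD8-IFNγRKO mice were CD8-Cre IFNgR1flox/flox Rosa26Tomato, so both genotypes carried the Cre and the Tomato reporter, and Cre is active in mature CD8 T cells. Young adult mice of both sexes bore B16-OVA, a mouse melanoma line that makes ovalbumin, and their tumors and draining lymph nodes (LN) were taken at day 12. Cells were sorted as CD45+ CD3+ CD8+ Tomato+. Each tissue and genotype gave 1 library from 3 pooled mice, hence 4 libraries, and the T cell receptors (TCR) of both tumor libraries were also sequenced. With 1 library a group there was no replicate spread and no test was possible. All intervals given are 95% intervals of counting error only, and every difference is one between libraries, or between cells of 1 library.

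An activated CD8 T cell takes a course set by a small circuit of DNA-binding proteins. The T-box factors T-bet (*Tbx21*) and Eomes, with Blimp-1 (*Prdm1*), the E protein inhibitor Id2, the repressor Zeb2 and Runx3, drive cytotoxic differentiation, while prolonged TCR signaling through NFAT proteins such as NFATc1 induces Tox and Tox2, which install the exhausted state. In tumors, cells that keep *Tcf7*, the gene of the self-renewal factor TCF1, feed a larger pool that carries the inhibitory receptor TIM-3 (*Havcr2*). Helios (*Ikzf2*) is an Ikaros family factor found in regulatory and some chronically stimulated T cells.

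After filtering, 7103 control and 8636 CD8-IFNγRKO tumor cells and 6641 and 6731 LN cells were kept, with a median of 6308, 9402.5, 4051 and 3863 unique molecular identifiers (UMIs, 1 per captured transcript) a cell. *Ifngr1*, the targeted gene, was at 718 counts per 1e6 UMIs (CPM) in control tumor and 237 CPM in CD8-IFNγRKO tumor, and at 182 and 137 CPM in the LN libraries. A UMI of *Cd2*, *Cd8a* and *Cd8b1* was required of every cell, and each of 5 CD8 T cell markers was found in 56.7% to 92.7% of cells thinned to 1600 UMIs. Of 10 myeloid markers all had UMIs in both tumor libraries, and their summed level was 123 CPM in control and 71.0 CPM in CD8-IFNγRKO tumor, against 3.31 and 7.11 CPM in LN. Most of the tumor sums came from 1 of these markers, *Fcer1g*, at 68.7 and 49.7 CPM. *Cd4* and *Foxp3* together reached 4.91 to 19.7 CPM, and melanoma markers at most 3.38 CPM. Their part in the results was not tested, although leaving out cells with such UMIs is among the alternatives below. Any 2 libraries shared 51 to 82 cell barcodes, 0.758% to 1.23% of a library.

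Promoter sequence is given for 5 members on which the results below turn, from the RefSeq table of the GRCm38.p6 build. Stretches were used for 7 of the 10 members, among them *Tox2*, *Zeb2* and *Runx3* with several starts, and none were used for *Tox*, *Nfatc1* and *Ikzf2*. Each stretch is the 250 bases before a transcription start, printed in the direction of transcription. Capitals mark matches, on either strand, to the interferon-γ activated site TTCNNNGAA, the TCF core CTTTGA, the RUNX site TGTGGT and the E-box CAGGTG, which Zeb2 and E proteins bind. *Eomes* lies at chr9:118477939-118478188 on the plus strand, *Id2* at chr12:25096093-25096342 on the minus strand, *Prdm1* at chr10:44458749-44458998 on the minus strand, *Tbx21* at chr11:97115332-97115581 on the minus strand and the stretch of *Zeb2*, the second of its 4 starts, at chr2:45113280-45113529 on the minus strand.
Eomes: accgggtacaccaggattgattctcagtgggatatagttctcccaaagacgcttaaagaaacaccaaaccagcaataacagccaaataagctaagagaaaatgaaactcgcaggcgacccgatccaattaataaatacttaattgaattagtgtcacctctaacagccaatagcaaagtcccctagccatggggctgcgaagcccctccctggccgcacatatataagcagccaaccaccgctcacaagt
Id2: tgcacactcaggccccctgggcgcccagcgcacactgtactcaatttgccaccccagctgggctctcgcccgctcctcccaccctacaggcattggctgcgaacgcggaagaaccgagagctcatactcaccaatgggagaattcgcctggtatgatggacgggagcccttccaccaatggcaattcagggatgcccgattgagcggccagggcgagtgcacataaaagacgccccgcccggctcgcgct
Prdm1: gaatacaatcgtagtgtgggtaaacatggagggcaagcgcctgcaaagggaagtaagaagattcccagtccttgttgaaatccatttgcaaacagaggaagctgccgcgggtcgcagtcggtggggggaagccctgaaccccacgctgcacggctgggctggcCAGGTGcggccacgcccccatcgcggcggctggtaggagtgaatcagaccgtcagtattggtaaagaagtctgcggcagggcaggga
Tbx21: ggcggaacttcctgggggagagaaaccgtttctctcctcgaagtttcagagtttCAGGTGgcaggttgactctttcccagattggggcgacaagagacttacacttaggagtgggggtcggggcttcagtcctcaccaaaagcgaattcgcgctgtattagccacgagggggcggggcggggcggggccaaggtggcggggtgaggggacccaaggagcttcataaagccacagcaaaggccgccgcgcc
Zeb2: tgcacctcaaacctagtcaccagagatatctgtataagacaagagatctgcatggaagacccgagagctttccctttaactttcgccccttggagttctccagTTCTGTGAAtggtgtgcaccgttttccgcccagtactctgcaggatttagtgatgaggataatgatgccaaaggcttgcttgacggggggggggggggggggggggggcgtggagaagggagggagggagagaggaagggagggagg

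An E-box lay 87 bases before the start of *Prdm1* and 196 bases before that of *Tbx21*, and E-boxes were also found for *Tox2* and *Runx3*. Of the 15 stretches of members 4 held an E-box, against 17.2% of all 32851 stretches. The interferon-γ activated site was found before *Zeb2* alone, 147 bases from the start shown and also within the overlapping stretch of a neighbouring start, against 7.02% of all stretches. The TCF core was found before *Tox2* and a RUNX pair before *Runx3*, against 13.8% and 14.0% of all stretches. The stretches of *Eomes* and *Id2* held none of the 4 motifs. These are matches of letters in a short window and say nothing of binding.

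The first comparison asked how the factors differ between CD8 T cells of the tumor and of the LN. Effector factors that were barely detected in LN were plentiful in the tumor, and 8 of the 10 members were higher there by a log2 ratio of at least 0.5 in both genotypes, with none lower by as much. Among all genes with 20 UMIs or more, 27.3% were higher and 26.5% lower to that extent in control, and 27.6% and 27.0% in CD8-IFNγRKO libraries. The median log2 ratio of the members was 1.69 in both genotypes, against -0.01 and 0.00 over all genes. Log2 ratios are of levels with 1 CPM added, and their intervals, like folds, are of the counts alone.

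*Zeb2*, a repressor active in terminal effector cells, was at 49.0 and 42.7 CPM in control and CD8-IFNγRKO tumor and at 0.53 and 0.69 CPM in LN. Its fold was 91.6 (56.3 to 160.5) in control and 61.5 (39.8 to 101) in CD8-IFNγRKO libraries. *Prdm1*, which encodes the repressor Blimp-1, was at 54.0 and 50.9 CPM in the tumors and at 1.2 and 1.11 CPM in LN, a fold of 44.9 (32.4 to 64.3) and 45.9 (32.5 to 67.2). Both tumor libraries lay far above both LN libraries for these genes, and the genotypes lay close together within a tissue. LN levels rested on 16 and 20 UMIs of *Zeb2* and 36 and 32 of *Prdm1*. In thinned LN cells 0.0468% and 0.0747% held a *Zeb2* UMI and 0.0781% and 0.135% a *Prdm1* UMI, while markers of B cells and myeloid cells in the same libraries reached 0.0625% and 0.12%, so that *Zeb2* lay below and *Prdm1* a little above the highest share of these markers, all within counting error of it.

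*Tbx21*, the gene of T-bet, was at 106 and 88.2 CPM in the tumors and 5.31 and 4.92 CPM in LN, a fold of 19.95 (17.1 to 23.5) and 17.9 (15.2 to 21.3). *Eomes*, its T-box relative, did not share that pattern. It was at 29.8 and 40.5 CPM in the tumors and 33.1 and 36.7 CPM in LN, a fold of 0.90 (0.83 to 0.97) in control and 1.10 (1.03 to 1.18) in CD8-IFNγRKO libraries. Over 11 alternative settings its log2 ratio lay between -0.99 and 0.18 in control and between -0.63 and 0.62 in CD8-IFNγRKO libraries, so that its direction depended on the setting. *Runx3*, needed for CD8 lineage identity and cytotoxic genes, was likewise near level, at 125 and 116 CPM in the tumors and 131 and 140.5 CPM in LN, a fold of 0.95 (0.92 to 0.99) and 0.83 (0.80 to 0.86).

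*Id2*, which sequesters E proteins, was at 522 and 404.5 CPM in the tumors and 89.7 and 94.8 CPM in LN, a fold of 5.82 (5.59 to 6.05) and 4.27 (4.11 to 4.44). *Ikzf2* was at 39.4 and 39.0 CPM against 10.8 and 11.5 CPM, a fold of 3.66 (3.25 to 4.12) and 3.39 (3.02 to 3.80). Both were high in both tumors and low in both LN libraries, with intervals that did not overlap between tissues.

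Of the factors linked to exhaustion, *Nfatc1* and *Tox* differed less between tissues than *Id2* and *Ikzf2*, and *Tox2* was scarce in both. *Nfatc1*, whose product carries calcium signals of the TCR to the nucleus, was at 206 and 135 CPM in the tumors and 84.1 and 84.0 CPM in LN, a fold of 2.46 (2.35 to 2.56) and 1.6 (1.53 to 1.68). *Tox* was at 113 and 109 CPM against 62.3 and 67.8 CPM, a fold of 1.81 (1.72 to 1.91) and 1.6 (1.53 to 1.68). *Tox* was therefore well detected in LN, in 9.71% and 10.2% of thinned cells against 15.7% and 16.1% in the tumors. At full depth, which differs between libraries, the shares were 23.0% and 23.4% in LN and 46.1% and 54.2% in the tumors. *Tox2* was at 2.74 and 2.6 CPM in the tumors, where 0.406% and 0.479% of thinned cells held a UMI, below the 5.7% and 5.01% for the highest myeloid marker, *Fcer1g*, and within the range of the others. With 7 and 3 UMIs in LN its fold was 11.7 (5.56 to 29.6) and 24.96 (8.44 to 122).

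The median gene was not level between tissues. Over genes with 50 CPM or more the median log2 ratio of tumor over LN was 0.20 in control and 0.23 in CD8-IFNγRKO libraries. Relative to it, *Tox* and *Nfatc1* in CD8-IFNγRKO libraries were at 0.45 and 0.45 and so no longer past 0.5, *Eomes* there turned from 0.14 to -0.09, and the other calls remained on their side. With TCR, heat shock, ribosomal and mitochondrial genes left out of the total, *Tox* and *Nfatc1* there were both at 0.42, *Eomes* at -0.11 and *Runx3* at -0.53.

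**Figure D1:**
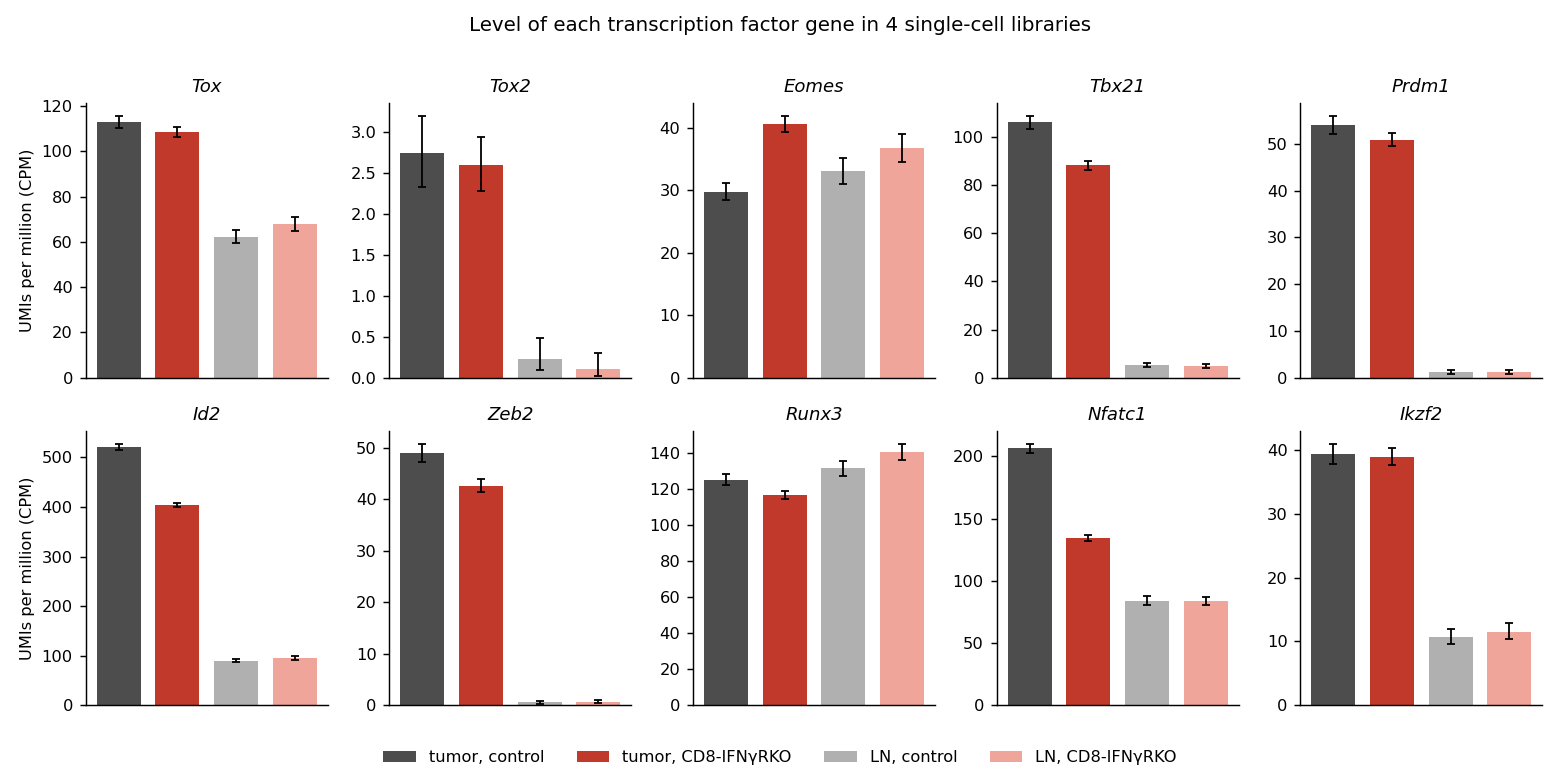
Level of each gene in the 4 libraries, in CPM on a linear axis from 0. Bars are pooled levels of all kept cells and lines are exact Poisson intervals of the counts. *Zeb2*, *Prdm1*, *Tbx21*, *Id2* and *Ikzf2* stand high in both tumor bars, *Eomes* and *Runx3* are near level, and *Nfatc1* is at 206 CPM in control and 135 CPM in CD8-IFNγRKO tumor.

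Relatives and partners of the members gave a mixed picture between tissues. Of 19 with 20 UMIs or more among 21, 4 were higher and 7 lower in control tumor, and 4 and 10 in CD8-IFNγRKO tumor. *Id3*, the Id gene of naive and memory cells, was lower at a log2 ratio of -5.02 and -3.97, and *Bach2*, a repressor that maintains quiescence, at -2.31 and -2.89. *Runx2* was higher by 3.77 in both genotypes, and *Ikzf4* by 1.95 and 1.72. *Id2* and *Id3* thus differed in opposite directions. Of the 12 effector genes 10 of 11 and 9 of 12 were higher, led by *Gzmb* with 9.33 and 10.73, and the integrin gene *Itgae* was lower at -5.76 and -5.92. All 9 exhaustion-associated surface genes were higher in both genotypes, led by *Pdcd1* with 8.75 and 8.25.

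LN cells were then divided by a UMI of *Ccl5*, a chemokine gene of memory and effector cells that naive cells largely lack. These were 663 of 6641 control cells (9.98%) and 565 of 6731 CD8-IFNγRKO cells (8.39%), with a median of 5835 and 5409 UMIs against 3948 and 3768.5 in the others. Such cells held 70.4% and 60.6% of all *Tbx21* UMIs of their library and 43.2% and 35.4% of the *Eomes* UMIs. *Tbx21* was at 27.1 and 25.7 CPM with a *Ccl5* UMI and 1.82 and 2.20 CPM without, and *Eomes* at 103 and 112 CPM against 21.8 and 26.8 CPM. Both T-box genes were thus higher in the *Ccl5* cells of both LN libraries.

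*Tox* went the other way, at 42.3 and 46.7 CPM with a *Ccl5* UMI and 65.5 and 70.5 CPM without, a fold of 0.65 (0.55 to 0.76) and 0.66 (0.56 to 0.78). *Id2* was also lower in *Ccl5* cells, with a fold of 0.84 (0.74 to 0.94) and 0.67 (0.59 to 0.77). *Runx3* had a fold of 1.12 (1.03 to 1.23) and 1.11 (1.01 to 1.22), and *Nfatc1* of 0.97 (0.86 to 1.09) and 0.98 (0.86 to 1.11). *Zeb2* had 8 of its 16 UMIs in the *Ccl5* cells of control LN, a fold of 6.24 (2.04 to 19.1), and 4 of 20 in CD8-IFNγRKO LN, a fold of 1.91 (0.46 to 5.91). For *Prdm1* the fold was 2.4 (1.03 to 5.14) and 2.14 (0.78 to 5.08). Both were thus higher in *Ccl5* cells of control LN, on few UMIs, while the intervals in CD8-IFNγRKO LN contain 1. The *Eomes* level of LN *Ccl5* cells, 103 and 112 CPM, was above that of either tumor library as a whole.

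The second comparison asked what loss of IFNγR1 on CD8 T cells goes with in the tumor. Of the 10 members 1, *Nfatc1*, was past a log2 ratio of 0.5 and was lower, where 5.28% of 13341 genes were lower and 6.99% higher to that extent. *Nfatc1* was at 206 CPM (203 to 210) in control and 135 CPM (132 to 137) in CD8-IFNγRKO tumor, a log2 ratio of -0.61 (-0.65 to -0.58). Over 11 alternative settings it lay between -0.64 and -0.44. *Id2* came next among the lower genes, at 522 and 404.5 CPM (-0.37, interval -0.39 to -0.35), then *Tbx21* at 106 and 88.2 CPM (-0.26, -0.31 to -0.22) and *Zeb2* at 49.0 and 42.7 CPM (-0.19, -0.27 to -0.13). These 3 did not reach 0.5.

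*Eomes* was the one member with a positive log2 ratio in tumor, at 40.5 CPM (39.2 to 41.8) against 29.8 CPM (28.4 to 31.2), a log2 ratio of 0.43 (0.36 to 0.53). It was past 0.5 in 4 of 11 alternative settings. These gave 0.57 in thinned cells, 0.61 as the mean of single cells, 0.65 in cells without a *Mki67* UMI and 0.80 in cells of 5000 to 10000 UMIs. In the others it stayed under 0.5, down to 0.27 in cells with a *Mki67* UMI. *Tox*, *Tox2*, *Prdm1*, *Runx3* and *Ikzf2* had log2 ratios from -0.10 to -0.01. For *Tox* the interval was -0.10 to -0.01, and over the alternatives its ratio lay between -0.12 and 0.17.

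The share of proliferating cells differed between the tumor libraries. A UMI of *Mki67*, a gene of proliferating cells, was held by 26.3% of control and 45.9% of CD8-IFNγRKO tumor cells, and by 10.5% and 18.6% after thinning. *Eomes* was at 30.7 and 37.1 CPM in cells with a *Mki67* UMI and at 29.0 and 46.2 CPM in cells without, so the genotypes lay further apart in the latter. *Nfatc1* was at 192 and 126 CPM with and 218 and 149.5 CPM without, a gap of like size in both. *Id2* was at 493.5 and 397 CPM with and 544 and 418 CPM without. The part of cell cycle, depth and myeloid transcripts in these differences was not tested beyond these values.

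In LN none of the 9 members with 20 UMIs or more over both groups was past 0.5, where 0.588% of 12076 genes were higher and 1.03% lower. *Nfatc1* was level at 84.1 and 84.0 CPM (0.00, interval -0.08 to 0.08), *Id2* was at 89.7 and 94.8 CPM (0.08, 0.00 to 0.16) and *Eomes* at 33.1 and 36.7 CPM (0.15, 0.02 to 0.28). *Tox*, with 62.3 and 67.8 CPM, gave 0.12 (0.03 to 0.21).

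**Figure D2:**
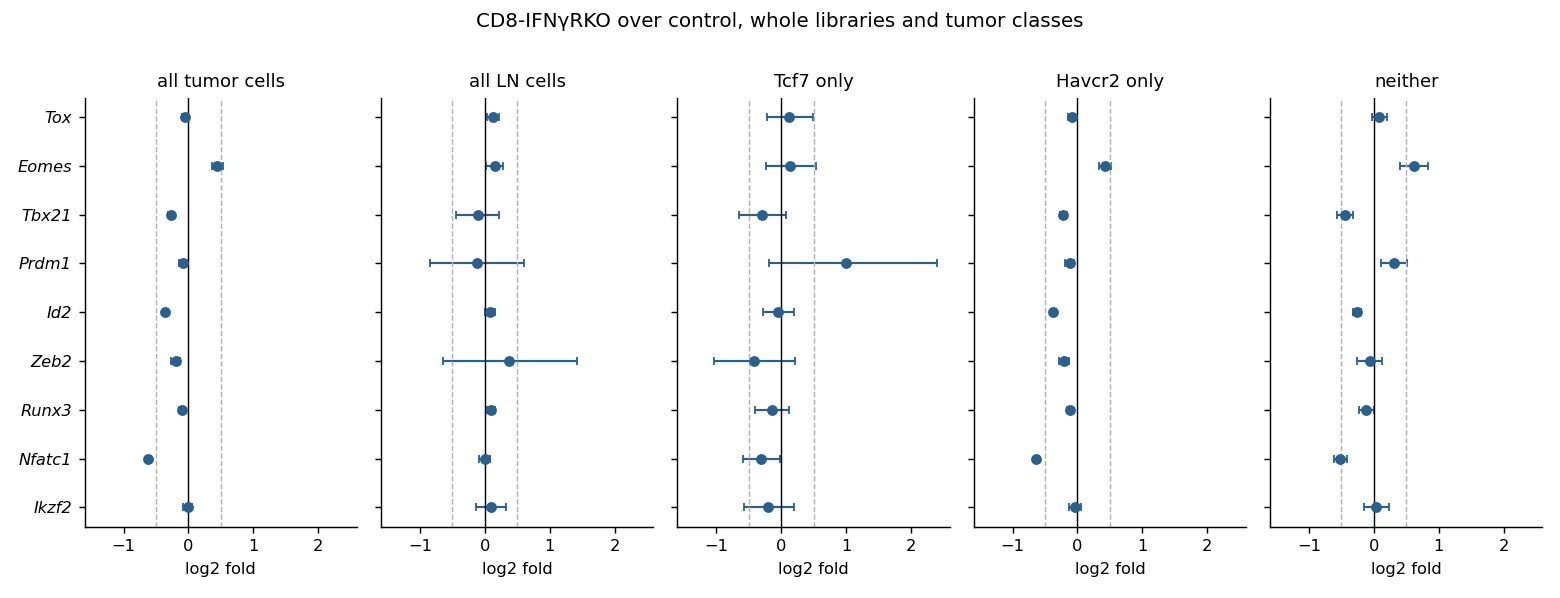
Log2 fold of CD8-IFNγRKO over control, without a pseudocount, in all tumor cells, all LN cells and 3 classes of tumor cells. Points are pooled levels, lines are exact intervals of the counts, and dashed lines mark 0.5 in either direction, with *Tox2* left out for its few UMIs. *Nfatc1* lies left of 0 in all tumor panels and on 0 in LN, and *Eomes* lies right of 0 in all tumor cells, in *Havcr2* only cells and in cells with neither UMI.

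Among relatives and partners 1 of 19 was higher and 3 lower in CD8-IFNγRKO tumor. *Id3* was higher by 1.09, from 1.23 to 3.73 CPM, and *Bcl6*, *Bach2* and *Ikzf4* were lower at -1.20, -0.66 and -0.52. Of the 12 effector genes 3 were higher, *Gzma* by 1.94, *Gzmk* by 0.75 and *Gzmb* by 0.54, and 2 lower, *Fasl* at -0.64 and *Cx3cr1* at -0.52. None of the 9 exhaustion-associated surface genes was higher and 4 were lower, *Lag3* at -0.81, *Cd200r1* at -0.69, *Tigit* at -0.67 and *Cd38* at -0.63. The list medians were -0.13, -0.16 and -0.40, and that of the members -0.09, against 0.02 over all genes. In LN no relative or partner was past 0.5, *Gzma* and *Gzmb* were lower at -1.20 and -0.86, and *Lag3* at -0.82, all 3 at under 5 CPM.

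Tumor cells were next divided by a UMI of *Tcf7* and of *Havcr2*. *Tcf7* alone marked 259 control cells (3.65%) and 672 CD8-IFNγRKO cells (7.78%), both genes marked 113 (1.59%) and 165 (1.91%), *Havcr2* alone 4866 (68.5%) and 5687 (65.9%), and 1865 (26.3%) and 2112 (24.5%) had neither. Depth differed with class, with a median of 3761 and 4039.5 UMIs in *Tcf7* only cells, 3627 and 4838.5 in cells with neither, 7915 and 11987 in *Havcr2* only cells, and 10427 and 12338 in cells with both. Since a UMI is found more readily in a deep cell, the classes are ranges of detection and not cell types. Of the *Tcf7* only cells 33.6% and 32.7% had a UMI of *Pdcd1*, against 95.2% and 96.7% of the *Havcr2* only cells. Among cells with neither, nearer in depth to *Tcf7* only cells, the shares were 77.2% and 81.7%. *Pdcd1* was at 289 and 251 CPM in *Tcf7* only cells. It was at 798 and 644 CPM in cells with neither and at 839 and 634 CPM in *Havcr2* only cells.

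In cells with a *Tcf7* UMI against those without, *Prdm1* and *Id2* were lower and *Eomes* higher by at least 0.5 in both tumors. In control tumor 2 members were higher and 2 lower, where 10.2% of all genes were higher and 11.5% lower. In CD8-IFNγRKO tumor 1 was higher and 2 lower, against 11.8% and 10.4%. *Prdm1* was at 23.1 and 55.5 CPM with and without a *Tcf7* UMI in control (-1.23, interval -1.65 to -0.91) and at 23.2 and 52.7 CPM in CD8-IFNγRKO tumor (-1.15, -1.44 to -0.93). *Id2* was at 322.5 against 531 CPM (-0.72, -0.82 to -0.62) and 248.5 against 415 CPM (-0.74, -0.82 to -0.66).

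*Eomes* was at 57.1 CPM with and 28.4 CPM without a *Tcf7* UMI in control (0.98, 0.76 to 1.24) and at 61.3 and 39.2 CPM in CD8-IFNγRKO tumor (0.63, 0.48 to 0.80). *Ikzf2* was at 55.6 and 38.6 CPM (0.52, 0.28 to 0.77) and at 53.9 and 38.0 CPM (0.49, 0.33 to 0.67), on either side of 0.5 but of one size. Over 13 alternative settings its log2 ratio lay between 0.03 and 1.11 in control and between 0.01 and 1.07 in CD8-IFNγRKO tumor. *Tbx21*, *Zeb2*, *Tox* and *Nfatc1* had log2 ratios of -0.45 to -0.23 in either library. They did not reach 0.5 in the main setting, though each did under some alternatives. *Runx3* stayed at 123 and 124 CPM with and 125 and 116 CPM without.

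In *Tcf7* only cells *Prdm1* had 7 and 38 UMIs, or 5.54 CPM (2.23 to 11.4) and 11.1 CPM (7.84 to 15.2), against 58.3 and 53.7 CPM in *Havcr2* only cells, a fold of 0.095 (0.038 to 0.196) and 0.206 (0.146 to 0.284). *Id2* was at 159 and 154 CPM against 544 and 421 CPM, a fold of 0.292 (0.253 to 0.336) and 0.367 (0.336 to 0.400). *Zeb2* was at 26.9 and 20.1 CPM against 49.9 and 43.2 CPM, and *Nfatc1* at 122 and 98.8 CPM against 211 and 136 CPM. The *Id2* and *Nfatc1* levels of *Tcf7* only cells lay between those of LN and of *Havcr2* only cells in both genotypes.

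*Tox* was also lowest in *Tcf7* only cells, at 70.4 CPM (56.5 to 86.6) and 76.9 CPM (67.9 to 86.8), and highest in cells with neither UMI, at 129 CPM (121 to 137) and 137 CPM (131 to 143). *Tbx21* was at 72.8 and 59.4 CPM in *Tcf7* only cells, and in control it too was highest with neither UMI, at 126 CPM against 104 CPM in *Havcr2* only cells. *Eomes* was highest in *Tcf7* only and lowest in *Havcr2* only cells, at 61.7 and 68.2 CPM in *Tcf7* only, 53.1 and 50.9 CPM in both, 31.2 and 48.1 CPM in neither and 28.0 and 37.6 CPM in *Havcr2* only cells. In control its levels in the first 2 classes have overlapping intervals, as do those in the last 2. *Ikzf2* followed the same order, from 64.1 and 56.0 CPM to 37.2 and 36.2 CPM. *Tox2* had 1 to 12 UMIs in the classes with *Tcf7* and cannot be ranked.

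Cells with both UMIs were nearer to *Havcr2* only cells in *Id2*, *Zeb2*, *Tbx21* and *Prdm1*, and lay between the 2 classes in *Eomes*. *Id2* was at 463 and 389 CPM, *Zeb2* at 51.8 and 48.7 CPM and *Prdm1* at 38.1 and 41.3 CPM. They were the deepest class, and whether some were pairs of cells under 1 barcode was not tested. Leaving out the 8% of cells with most UMIs gave log2 ratios by *Tcf7* UMI of -1.499 and -1.31 for *Prdm1* and 1.07 and 0.67 for *Eomes*.

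**Figure D3:**
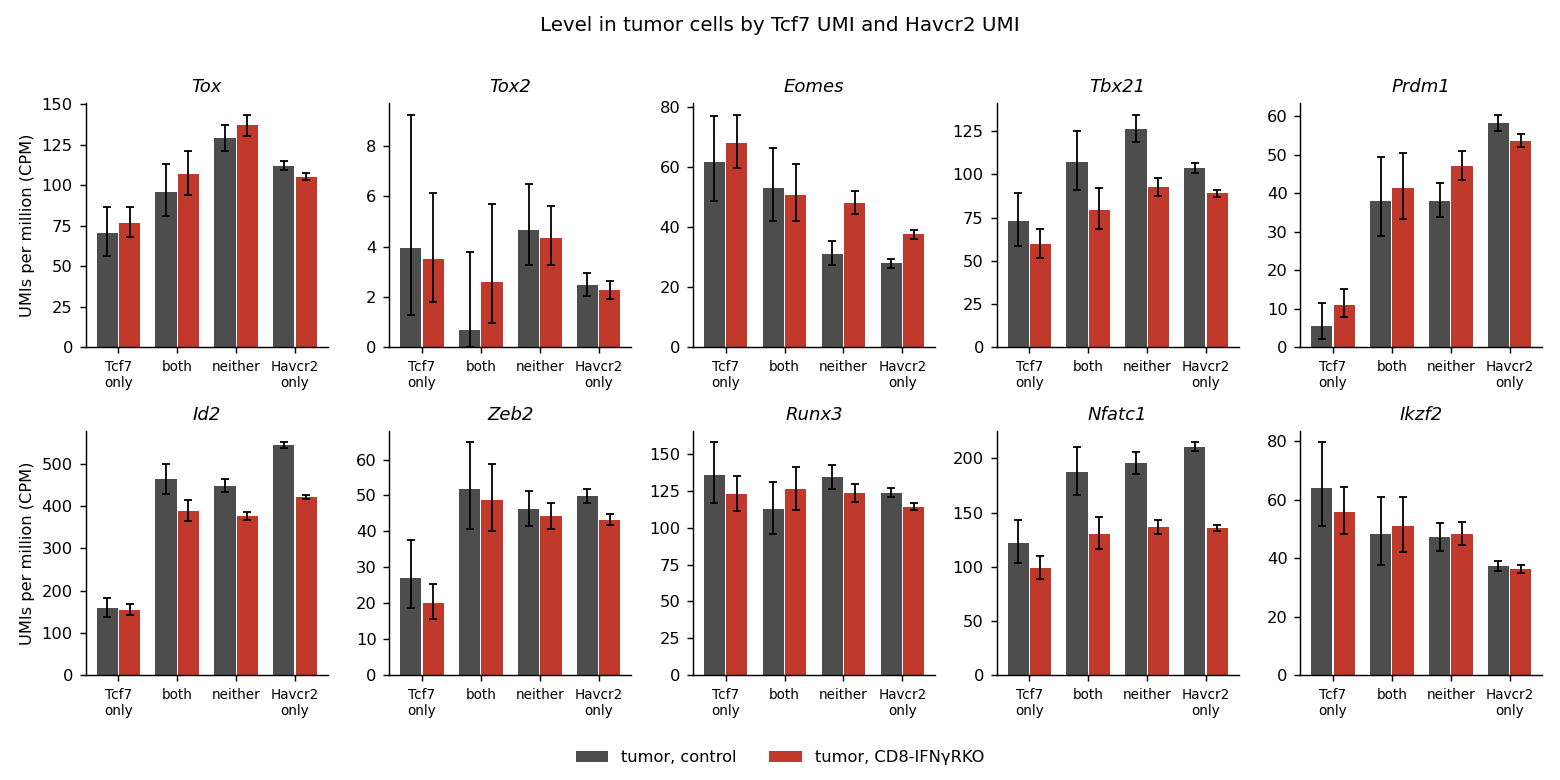
Level of each gene in tumor cells grouped by a UMI of *Tcf7* and of *Havcr2*, in CPM on a linear axis from 0, for both tumor libraries. Bars are pooled levels and lines are exact Poisson intervals of the counts. *Prdm1*, *Id2* and *Zeb2* are lowest in *Tcf7* only cells, *Eomes* and *Ikzf2* highest there, and the control bar of *Nfatc1* is above the CD8-IFNγRKO bar in each class.

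The split by *Tcf7* UMI was repeated at like depth and with *Tcf7* cells limited to those with a *Pdcd1* UMI, settings chosen after seeing the data. In cells of 5000 to 10000 UMIs the log2 ratios were -1.83 and -2.01 for *Prdm1*, -0.83 and -1.08 for *Id2* and 0.99 and 0.39 for *Eomes*. In *Tcf7* cells that also had a *Pdcd1* UMI, against cells with no *Tcf7* UMI, they were -0.89 and -0.67, -0.46 and -0.40, and 0.78 and 0.42. All 3 genes kept their direction under both settings. *Id2* was less than 0.5 apart with the *Pdcd1* requirement, and *Eomes* was less than 0.5 apart in CD8-IFNγRKO tumor under both settings. The *Pdcd1* requirement kept 33.6% and 32.7% of the *Tcf7* only cells but most of the deeper cells with *Tcf7* and *Havcr2* UMIs. Cells with no *Tcf7* UMI were not limited by *Pdcd1*. This setting thus also changed the class mix and depth of the *Tcf7* cells, and their part in the smaller ratios was not tested. With the *Pdcd1* requirement *Tox* turned from -0.30 to 0.11 in CD8-IFNγRKO tumor and was at -0.15 in control. *Tbx21*, *Zeb2* and *Nfatc1* were then at -0.21, -0.09 and -0.06 in CD8-IFNγRKO tumor, and *Tox2* at 0.55. Over 13 alternatives *Tox* kept its negative sign in 13 in control and in 12 in CD8-IFNγRKO tumor. It lay between -0.73 and -0.09 in control and between -0.88 and 0.11 in CD8-IFNγRKO tumor, with -0.55 and -0.88 in thinned cells. In cells of 5000 to 10000 UMIs *Zeb2* was at -0.34 in control and -0.81 in CD8-IFNγRKO tumor.

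Of 19 relatives and partners measured in the same split, 5 were higher in both tumors and 2 and 1 lower. *Id3* led with 3.92 and 4.58, at 19.4 against 0.35 CPM and 46.3 against 0.97 CPM, followed by *Bach2* with 1.77 and 2.11 and *Zeb1*, a relative of *Zeb2* that keeps memory cells, with 0.98 and 1.24. *Ikzf4* was lower at -1.04 and -0.64. *Id2* and *Id3* thus differed in opposite directions by *Tcf7* UMI, while *Zeb2*, with -0.29 and -0.45, did not reach 0.5 in the main setting. Over 13 alternatives *Zeb2* lay between -0.58 and -0.03 in control and between -1.005 and 0.04 in CD8-IFNγRKO tumor. It was past 0.5 in 1 and 7 of them. Of the effector genes 4 and 2 were higher and 6 and 6 lower, with *Prf1* at -1.16 and -1.52 and *Gzmb* at -1.004 and -1.52, and *Itgae* at 2.78 and 1.65. No exhaustion-associated surface gene was higher and 7 of 9 were lower in each tumor, led by *Cd244a* with -1.10 and -1.49.

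By *Havcr2* UMI the members differed little. In control tumor 1 was higher and 1 lower, where 3.18% of all genes were higher and 5.04% lower. In CD8-IFNγRKO tumor none was higher and 1 was lower, against 2.51% and 6.26%. *Prdm1* was at 57.7 CPM with and 33.5 CPM without in control (0.76, 0.61 to 0.96) and at 53.3 and 39.6 CPM in CD8-IFNγRKO tumor (0.42, 0.31 to 0.55). *Tox2* was lower with *Havcr2*, at 2.41 and 4.57 CPM (-0.71, -1.44 to -0.37) and at 2.27 and 4.15 CPM (-0.66, -1.28 to -0.45), on 41 to 176 UMIs. *Id2* was higher by 0.41 and 0.35, *Ikzf2* lower at -0.39 and -0.43 and *Eomes* at -0.30 and -0.45. In cells thinned to 1600 UMIs before the split no member was past 0.5 in either tumor, with *Prdm1* at 0.36 and 0.45. *Id2* was then at 0.22 and 0.25 and *Eomes* at -0.31 and -0.39. *Ikzf2* was then at -0.03 and 0.07. Thinning also moves cells with a *Havcr2* UMI into the group without one. *Havcr2* only cells were 68.5% and 65.9% at full depth and 35.1% and 26.0% of thinned cells. The thinned split is therefore a weaker contrast, and a smaller ratio in it does not show that a difference is absent.

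At full depth *Tox* was lower with a *Havcr2* UMI in both libraries, at 112 and 120 CPM in control (-0.11, -0.21 to -0.02) and 105 and 124 CPM in CD8-IFNγRKO tumor (-0.24, -0.31 to -0.17). In cells thinned to 1600 UMIs before the split it was at -0.09 and 0.06. Its direction in CD8-IFNγRKO tumor thus depended on the setting, of which the thinned split is the weaker contrast. *Tbx21* was at 104 and 119 CPM in control (-0.19) and 88.7 and 85.5 CPM in CD8-IFNγRKO tumor (0.05, -0.03 to 0.14). In the thinned cells *Tbx21* was at 0.05 and 0.04, so its direction in control depended on the setting. Relatives and partners included 2 and 5 lower genes and none higher, led by *Id3* with -2.09 and -3.36 and *Bach2* with -1.14 and -1.41. Among effector genes 3 were higher and 3 lower in each tumor, with *Prf1* at 1.08 and 1.19 and *Cxcr3* at -1.32 and -1.64. Of the surface genes 1 and 2 were higher, *Entpd1* in both, with 0.59 and 0.50.

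To remove depth from the count of *Havcr2* UMIs, cells thinned to 1600 UMIs were grouped by the number left. In control, *Id2* was at 490 CPM (473 to 507) in 4150 cells with 0, 548 CPM (520 to 578) in 1595 cells with 1, 614 CPM (561 to 670) in 501 cells with 2 and 641 CPM (546 to 748) in 156 cells with 3 or more. *Nfatc1* ran from 209 CPM (198 to 220) through 217 and 267 CPM to 312 CPM (247 to 390), and *Prdm1* from 45.9 CPM (40.9 to 51.4) to 100 CPM (64.8 to 148). *Zeb2* ran from 44.4 CPM (39.5 to 49.8) through 50.2 and 68.6 CPM to 72.1 CPM (42.7 to 114). *Id2*, *Nfatc1*, *Prdm1* and *Zeb2* were thus higher with more *Havcr2* UMIs in control, and the intervals of neighbouring groups often overlapped. *Tbx21* was at 118, 116, 131 and 152 CPM (108 to 209), and *Tox* at 116, 111, 109 and 96.2 CPM (61.6 to 143). *Eomes*, at 34.6, 27.0, 28.7 and 32.1 CPM, and *Ikzf2*, at 44.6, 43.5, 49.9 and 24.0 CPM (8.82 to 52.3), did not run one way.

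In CD8-IFNγRKO tumor *Id2* was at 384 CPM (372 to 397), 440 CPM (416 to 465), 534 CPM (476 to 597) and 461 CPM (336 to 617), the last from 61 cells. *Nfatc1* ran from 142 CPM (135 to 150) to 174 CPM (101 to 279), and at 0 UMIs it was already under the control level of 209 CPM. *Prdm1*, at 46.8, 67.4, 49.0 and 71.7 CPM, did not rise at every step, and *Zeb2* was at 43.3, 42.3, 43.8 and 51.2 CPM. *Tbx21* was at 93.8, 91.1, 123 and 92.2 CPM, and *Tox* at 117, 125, 107 and 102 CPM (49.1 to 188). *Eomes* was at 51.5, 41.3, 26.3 and 51.2 CPM, and *Ikzf2* at 43.1, 47.3, 36.8 and 30.7 CPM (6.34 to 89.8). *Runx3* was level up to 2 UMIs, at 127, 126 and 117 CPM in control and 124, 120 and 121 CPM in CD8-IFNγRKO tumor, and at 3 or more its intervals were 45.8 to 119 and 78.4 to 241 CPM. The median full depth of the groups was 6682.5 to 7368 UMIs in control and 9377 to 10544 in CD8-IFNγRKO tumor.

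**Figure D4:**
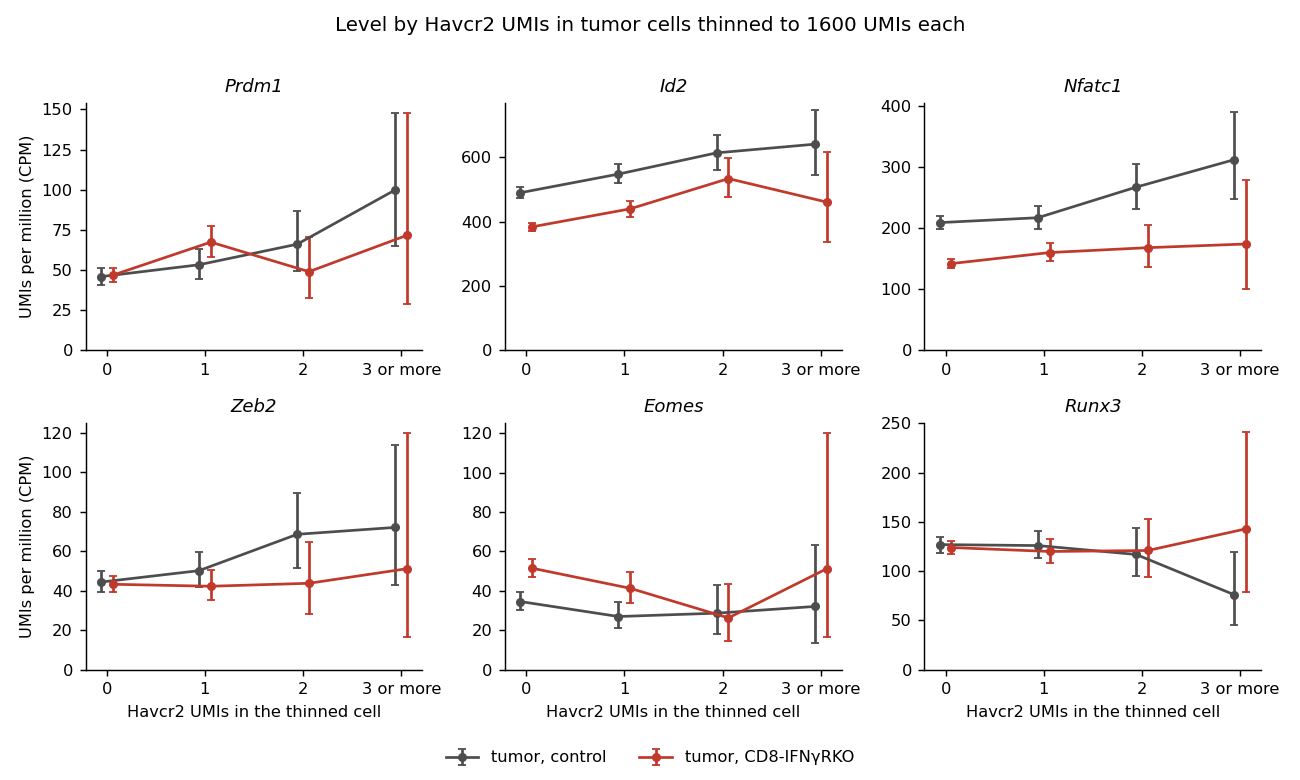
Level of 6 of the genes in tumor cells thinned to 1600 UMIs, by the number of *Havcr2* UMIs left (horizontal axis), in CPM on a linear axis from 0. Points are pooled levels and lines through them exact Poisson intervals. *Id2* and *Nfatc1* in control are higher to the right, from 490 to 641 CPM and from 209 to 312 CPM, and intervals widen where cells are few.

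The genotype difference was also read inside each class. *Nfatc1* was lower in CD8-IFNγRKO cells in all 4, at -0.30 (-0.58 to -0.02) in *Tcf7* only, -0.52 (-0.76 to -0.28) in both, -0.63 (-0.67 to -0.59) in *Havcr2* only and -0.51 (-0.62 to -0.42) in cells with neither. *Eomes* was higher by 0.41 (0.33 to 0.52) in *Havcr2* only cells and 0.61 (0.41 to 0.84) in cells with neither, while its intervals in the classes with *Tcf7*, -0.23 to 0.53 and -0.49 to 0.37, contain 0. *Tbx21* was lower at -0.22 (-0.27 to -0.17) in *Havcr2* only cells and -0.44 (-0.57 to -0.32) in cells with neither. It was also lower at -0.42 (-0.74 to -0.11) in cells with both, and at -0.29 (-0.65 to 0.08) in *Tcf7* only cells. *Id2* was lower at -0.37 in *Havcr2* only cells, -0.25 in cells with neither and -0.25 (-0.40 to -0.11) in cells with both. In *Tcf7* only cells it was at -0.04 (-0.28 to 0.20). *Prdm1* was lower at -0.12 (-0.19 to -0.05) in *Havcr2* only cells and higher by 0.30 (0.11 to 0.51) in cells with neither. Whether classes differ in their genotype gap was not tested.

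TCR sequences placed 4284 control tumor cells (60.3%) in 260 clones and 5937 CD8-IFNγRKO tumor cells (68.7%) in 429, a clone being cells with the same V and J genes and CDR3 bases of both chains. Clones of 50 cells or more numbered 10 and 21 and held 78.0% and 88.1% of these cells. Clones are not replicates of a genotype, and since mice were pooled a clone cannot be tied to its mouse. Leaving out *Tox2*, with no UMI in some clones, *Eomes* spread most among clones of control, from 10.6 to 127 CPM with a median of 25.8 CPM. In CD8-IFNγRKO tumor it ran from 12.1 to 124 CPM with a median of 54.9 CPM. There *Tox* spread more, over a factor of 14.7 against 10.3 for *Eomes*. *Runx3*, *Tbx21*, *Id2* and *Nfatc1* spread least in control, over a factor of 1.52 to 1.6, with *Runx3* at 93.1 to 142 CPM and *Nfatc1* at 151 to 242 CPM. The lowest control levels of *Prdm1* and *Zeb2* rested on 6 and 10 UMIs and that of *Eomes* on 45, so counting error adds to such spreads.

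*Eomes* levels were low in some large and some small clones. The 3 largest of control, with 1104, 1009 and 516 cells, were at 13.9, 16.8 and 10.6 CPM. Those of CD8-IFNγRKO tumor, with 1463, 1200 and 315 cells, were at 36.3, 12.1 and 13.5 CPM. The largest CD8-IFNγRKO clone was thus above the control median of 25.8 CPM, and control clones of 64 and 55 cells were as low as the large ones, at 13.6 CPM (5.0 to 29.7) and 12.9 CPM (3.53 to 33.1). Of the 21 CD8-IFNγRKO clones 17 were above the median control clone in *Eomes*, and ranges of the genotypes overlapped for all 10 genes. For *Nfatc1* 2 of 21 were above it, with medians of 129 and 199 CPM, for *Id2* 3 of 21, with 416 and 473 CPM, and for *Tbx21* 6 of 21, with 90.3 and 101 CPM. For *Prdm1* 20 of 21 were above, with 52.1 and 41.7 CPM, although the pooled level was a little lower. The control median includes small clones with 6 and 7 *Prdm1* UMIs (7.13 to 42.3 and 9.4 to 48.2 CPM). The 3 largest clones were at 62.8, 54.9 and 42.6 CPM in control and 49.4, 54.5 and 65.4 CPM in CD8-IFNγRKO tumor.

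Single clones stood far from the rest. In CD8-IFNγRKO tumor a clone of 72 cells had 16 UMIs of *Tox*, 14.4 CPM (8.21 to 23.3), where the other clones lay between 52.3 and 211 CPM. A clone of 216 cells was at 161 CPM (143 to 181) of *Ikzf2*, against at most 71.6 CPM in the others, and a clone of 133 cells at 88.7 CPM (72.3 to 108) of *Zeb2*, against at most 59.7 CPM. Clones of 149 and 71 cells were alike in several genes at once, with *Nfatc1* at 220 and 213 CPM, *Tox* at 177 and 210 CPM, *Tox2* at 16.0 and 9.40 CPM and *Zeb2* at 22.3 and 18.8 CPM. *Tox2* rested on 10 and 3 UMIs (7.66 to 29.4 and 1.94 to 27.5 CPM) and *Zeb2* on 14 and 6 (12.2 to 37.5 and 6.9 to 40.9 CPM). In these 2 clones 35.6% and 35.2% of cells had a *Havcr2* UMI, with a mean depth of 4204 and 4497 UMIs, where the other clones had 63.2% to 84.4%. These clones were chosen after their values were seen.

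Among the cells of all large clones, pooled within a library, 34 control and 127 CD8-IFNγRKO cells had a *Tcf7* UMI. In control the *Tcf7* cells had log2 ratios of -1.30 (-2.97 to -0.12) for *Prdm1* and -0.98 (-1.37 to -0.62) for *Id2*, and 1.47 (0.81 to 2.10) for *Ikzf2*. In CD8-IFNγRKO clones these were -0.44 (-0.95 to 0.01), -0.34 (-0.51 to -0.18) and 0.15 (-0.35 to 0.62). *Eomes*, at 0.49 (-0.71 to 1.497) and -0.07 (-0.61 to 0.41), had no difference detectable at this depth. By *Havcr2* UMI the pooled large clones gave *Tox* at -0.32 (-0.46 to -0.19) and -0.54 (-0.64 to -0.46) and *Ikzf2* at -0.73 (-0.97 to -0.52) and -0.55 (-0.72 to -0.41). These are not differences within a clone, since clones differ in the level of these genes and in their share of *Havcr2* cells. Cells were not thinned here, and the part of clone composition and depth was not tested.

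**Figure D5:**
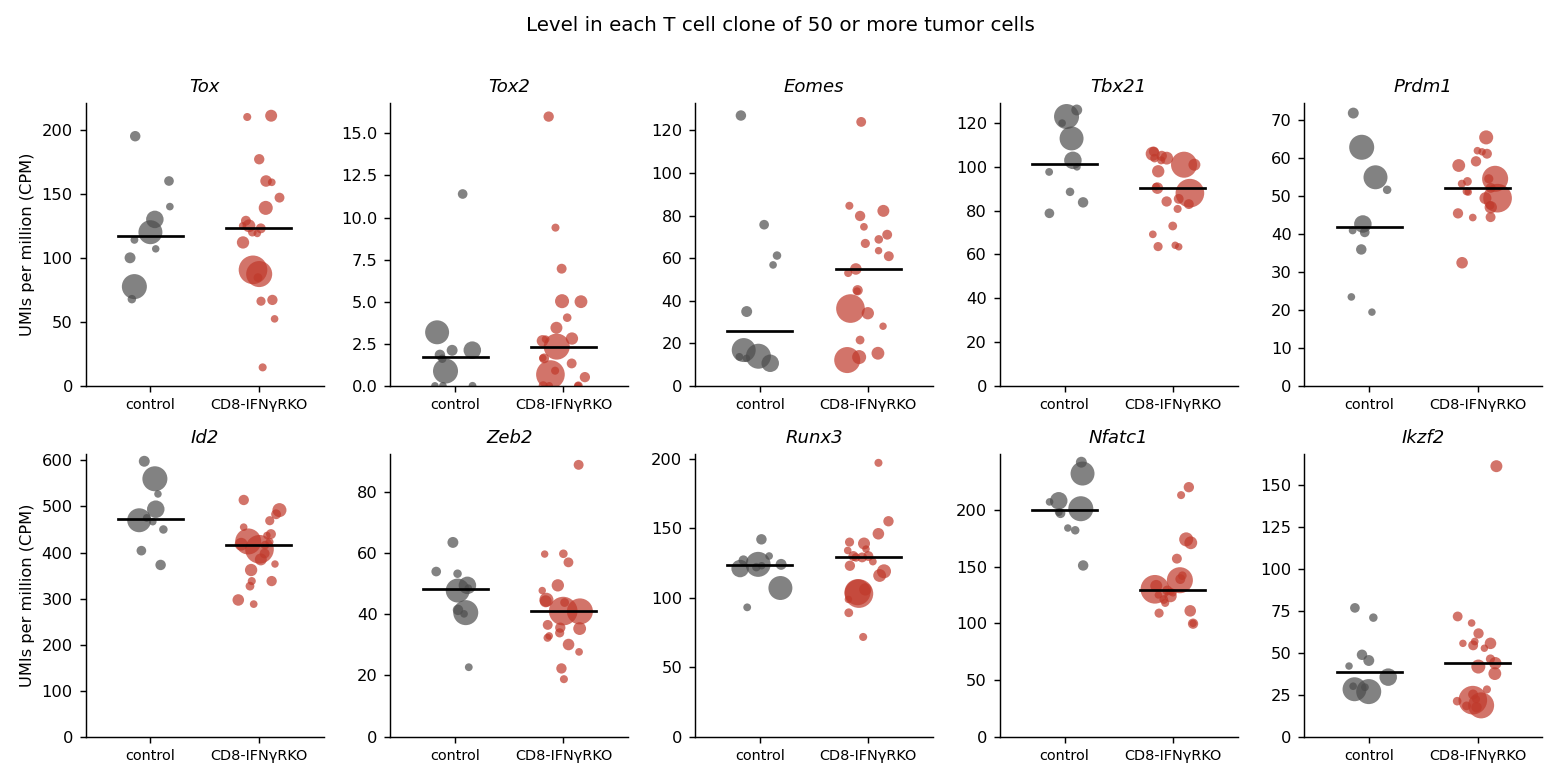
Level of each gene in every tumor clone of 50 cells or more, 10 in control and 21 in CD8-IFNγRKO, in CPM on a linear axis from 0. Each point is a clone with its area rising with its number of cells, and the black line is the median clone. The 3 largest control clones lie at 10.6 to 16.8 CPM of *Eomes*, most CD8-IFNγRKO clones lie below the control median in *Nfatc1*, and ranges of both genotypes overlap for all genes.

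Genes with a pattern like that of 4 members were sought over 10 groups of cells, the 4 classes of each tumor library and both LN libraries, among 3793 genes with 50 CPM or more in a group. By Pearson r of log2(CPM + 1), *Tbx21* was most like *Bhlhe40* (0.999) and *Tigit* (0.998), *Zeb2* most like *Pdcd1* and *Plscr1* (both 0.996), *Tox* most like *Capza1* (0.971) and *Tle5* (0.949), and *Eomes* most like *Ddx24* (0.913) and *1110038B12Rik* (0.896). The groups share libraries and depth, and LN groups lie apart from tumor groups for *Tbx21* and *Zeb2*, so that tissue alone separates the points. Among members *Tbx21* with *Zeb2* (0.992) and *Prdm1* with *Id2* (0.976) were most alike, while *Eomes* had 0.23 with *Tbx21* and -0.21 with *Tox*.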

How the data were processed

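CD8 T cells of 4 pooled samples were profiled by 10x 5′ single-cell RNA sequencing, with TCR libraries from both tumors. The authors aligned reads to mm10 with Cell Ranger 6.0.0 and deposited raw UMI counts per gene and barcode, with 28841136 to 93995655 UMIs over the kept cells of a library. Here, a cell was kept if 200 to 6000 genes were detected, mitochondrial genes held 3% of its UMIs or less, its top gene held 20% or less, and *Cd2*, *Cd8b1* and *Cd8a* were all detected. No doublet caller was run. Levels are pooled UMIs scaled to the library total (CPM), ratios are log2 with 1 CPM added, and a difference was counted at 0.5 or more among genes with 20 UMIs or more over both groups. Intervals are exact Poisson, Clopper-Pearson or conditional binomial, and intervals of ratios carry no added CPM. With 1 library a group no test was run. Named genes were the members, *Tcf7*, *Havcr2*, *Ifngr1*, *Mki67*, *Ccl5*, up to 4 genes of each of 3 lists by size of ratio, and the 2 most alike genes of 4 members. Others were added to these after their values were seen. The members and lists were chosen with earlier results of these data known. The code was tested on simulated data. Software was matplotlib 3.10.9, pandas 2.3.3, scipy 1.17.1 and numpy 2.4.6 under Python 3.11.15.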

Additional observations from a re-analysis of the deposited data

Results flagged for a closer look

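For 3 of the genes the tumor and LN libraries differed between genotypes in opposite directions, lower in CD8-IFNγRKO tumor and higher in CD8-IFNγRKO LN, with intervals that left out 0 in both tissues. The share of all genes with such a pattern was not counted, so the number says nothing particular to the members. *Zeb2*, at -0.19 and 0.14, and *Ikzf2*, at -0.01 and 0.09, had the same signs with intervals that contain 0 in LN. For the 3 genes the log2 ratio of CD8-IFNγRKO over control in tumor minus that in LN was -0.445 for *Id2*, -0.2 for *Runx3* and -0.175 for *Tox*. With 1 library a group these differences were not tested. None of the 3 genes was past a log2 ratio of 0.5 in either tissue, and in cells thinned to 1600 UMIs the tumor ratio was -0.36 for *Id2*, -0.02 for *Runx3* and 0.05 for *Tox*, the last with the opposite sign. In LN the median log2 ratio over genes with 50 CPM or more was itself 0.032. Relative to it the LN ratios were 0.05 for *Id2*, 0.07 for *Runx3* and 0.09 for *Tox*. Their LN intervals began at 0.002, 0.034 and 0.029, so only that of *Runx3* began above the median gene.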

How the results depend on the processing

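The number of members past a log2 ratio of 0.5 stayed at or within 1.5 times 8 between tumor and LN in both genotypes under all alternatives run. For CD8-IFNγRKO over control in tumor it was 1, and 2 in thinned cells, as the mean of single cells and in cells without a *Mki67* UMI. In LN it was 0, and 5 among the few cells with a *Mki67* UMI. By *Tcf7* UMI it was 4 in control, and 8 in all deposited barcodes and 2 in *Mki67* cells. In CD8-IFNγRKO tumor it was 3, and 5 in all barcodes, 7 in thinned cells, 6 as the mean of single cells, without *Mki67* cells and with 2 or more *Tcf7* UMIs, and 1 in *Mki67* cells. By *Havcr2* UMI it was 2 in control, and 0 in thinned cells and 1 with 10 CPM added, as the mean of single cells and in *Mki67* cells. In CD8-IFNγRKO tumor it was 1, and 3 in all barcodes, 2 after centring on the median gene, 0 in thinned cells or with 10 CPM added and 4 without *Mki67* cells. With 1 in place of 0.5 as the limit, the counts were 0 between genotypes in tumor, 1 in each tumor by *Tcf7* UMI and 0 in each by *Havcr2* UMI. The share of all genes past the limit was taken for the main setting only. Counts under the alternatives therefore have no background and show how calls move, not a trait of the members. Calls that changed sign were *Ikzf2* for tumor over LN in CD8-IFNγRKO *Mki67* cells (-0.55) and *Tox2* by *Havcr2* UMI in control *Mki67* cells (0.077). The cause was not tested. Restriction to 5000 to 10000 UMIs and the *Pdcd1* requirement were chosen after seeing the data. No paired analysis was possible because each group is 1 library with no replicate numbers. Few UMIs widen the intervals of *Tox2*, and of *Prdm1* and *Zeb2* in LN.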
